A study of Mus musculus with 2 samples.

Results

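The inorganic ion carriers, metal carriers and carbonic anhydrases of sorted tuft cells were described across 2 genotypes. Members were all genes of the count table whose symbol belongs to carrier families Slc4, Slc8, Slc9, Slc11, Slc12, Slc20, Slc24, Slc26, Slc30, Slc34, Slc39 or Slc40, or is a carbonic anhydrase symbol (Car with a number). The symbol rule found 87 of 17134 genes, of which 84 are carriers or anhydrases. The other 3 share only the name: Slc9a3r1 and Slc9a3r2 encode adaptor proteins, and Slc4a1ap encodes kanadaptin.

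Tuft cells, rare chemosensory cells of the gut epithelium, were sorted from the small intestine of naïve mice by surface EpCAM and Siglec-F. The Spib_KO library came from Spib fl/fl mice carrying Villin-cre, and the WT library from mice that had intact Spib and also carried Villin-cre. The Villin promoter drives Cre throughout the intestinal epithelium, so the deletion is not limited to tuft cells. There was 1 library per genotype, and neither the number of mice per library nor their strain and age is given in the labels. Differences therefore have no replicate check and describe these libraries alone.

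Carbonic anhydrases are zinc enzymes that interconvert carbon dioxide and water with bicarbonate and a proton. Bicarbonate carriers and sodium-proton exchangers move these products across membranes, and together they set the pH inside cells and at the gut surface. Zinc carriers of the Slc39 family bring zinc into the cytosol and those of the Slc30 family take it out, while Slc11a2 and Slc40a1 pass iron across the absorptive epithelium.

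The Spib_KO library held 17228665 reads and the WT library 17925421. Spib was at 2.80 CPM in Spib_KO and 348 CPM in WT. CPM is the read count scaled to a common library size, and a gene was measured if it reached 5 CPM and 30 reads in at least 1 library. A measured gene was called higher or lower in Spib_KO if the 95% counting interval of its log2 ratio lay at or beyond a 2-fold difference. The intervals cover the counting error of reads only, and no spread between animals. No molecular identifiers are named, so copies made by amplification are counted as separate reads, which can make the intervals too narrow. Levels of different genes are compared as deposited TPM, which is scaled by transcript length. Tuft cell markers were present, with 30 of 30 measured, 0 called and a median log2 ratio of 0.09. Markers of other cells differed between the libraries. Paneth cell markers had 9 of 12 measured genes lower and a summed level of 1111 CPM in Spib_KO against 2911 CPM in WT. Goblet cell markers had 4 of 11 lower, with summed levels of 1494 CPM in Spib_KO and 2378 CPM in WT. Of 8 measured enteroendocrine markers 5 were lower and 1 higher. Enteroendocrine markers summed to 580 CPM in Spib_KO and 556 CPM in WT, including Sct with 533 CPM in Spib_KO and 404 CPM in WT. Among 5 measured T cell and intraepithelial lymphocyte markers 4 were lower, with Cd3d at 0 reads in Spib_KO. Of 3 measured myeloid markers 1 was lower, 0 of 7 measured stem and progenitor markers were called, and no B cell, eosinophil, mast cell, stromal or endothelial marker was measured. Enterocyte markers summed to 21147 CPM in Spib_KO and 19941 CPM in WT, and this sum included Fabp1 with 10611 CPM in Spib_KO and 6968 CPM in WT. Of 26 measured enterocyte markers 1 was higher and 0 were lower, 20 had a log2 ratio below 0 and the median was -0.35. In a bulk sample, fewer cells of a type and less RNA per cell cannot be told apart.

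Of the 87 genes, 53 were measured, 2 were higher in Spib_KO and 0 were lower. The higher genes were Car2 and Slc30a10. Over all 10707 measured genes, 2.33% were higher and 2.18% were lower, and 3.77% of the measured members were higher. The share called is thus near that of the whole table. The median log2 ratio of the measured members was -0.05, against 0.01 over all measured genes, with 26 members above 0 and 27 below. A difference under 1.5-fold was found for 69.8% of measured members and for 79.5% of all measured genes. By the point estimate alone, 4 members were at least 2-fold higher and 1 at least 2-fold lower, which are 7.55% and 1.89% of those measured. The same rule gave 3.97% higher and 3.91% lower over all genes. The lower member was Slc4a5. Of the 34 members that were not measured, 8 had 30 reads or more in 1 library, 8 had 0 reads only in Spib_KO and 10 had 0 reads only in WT.

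**Figure D1:**
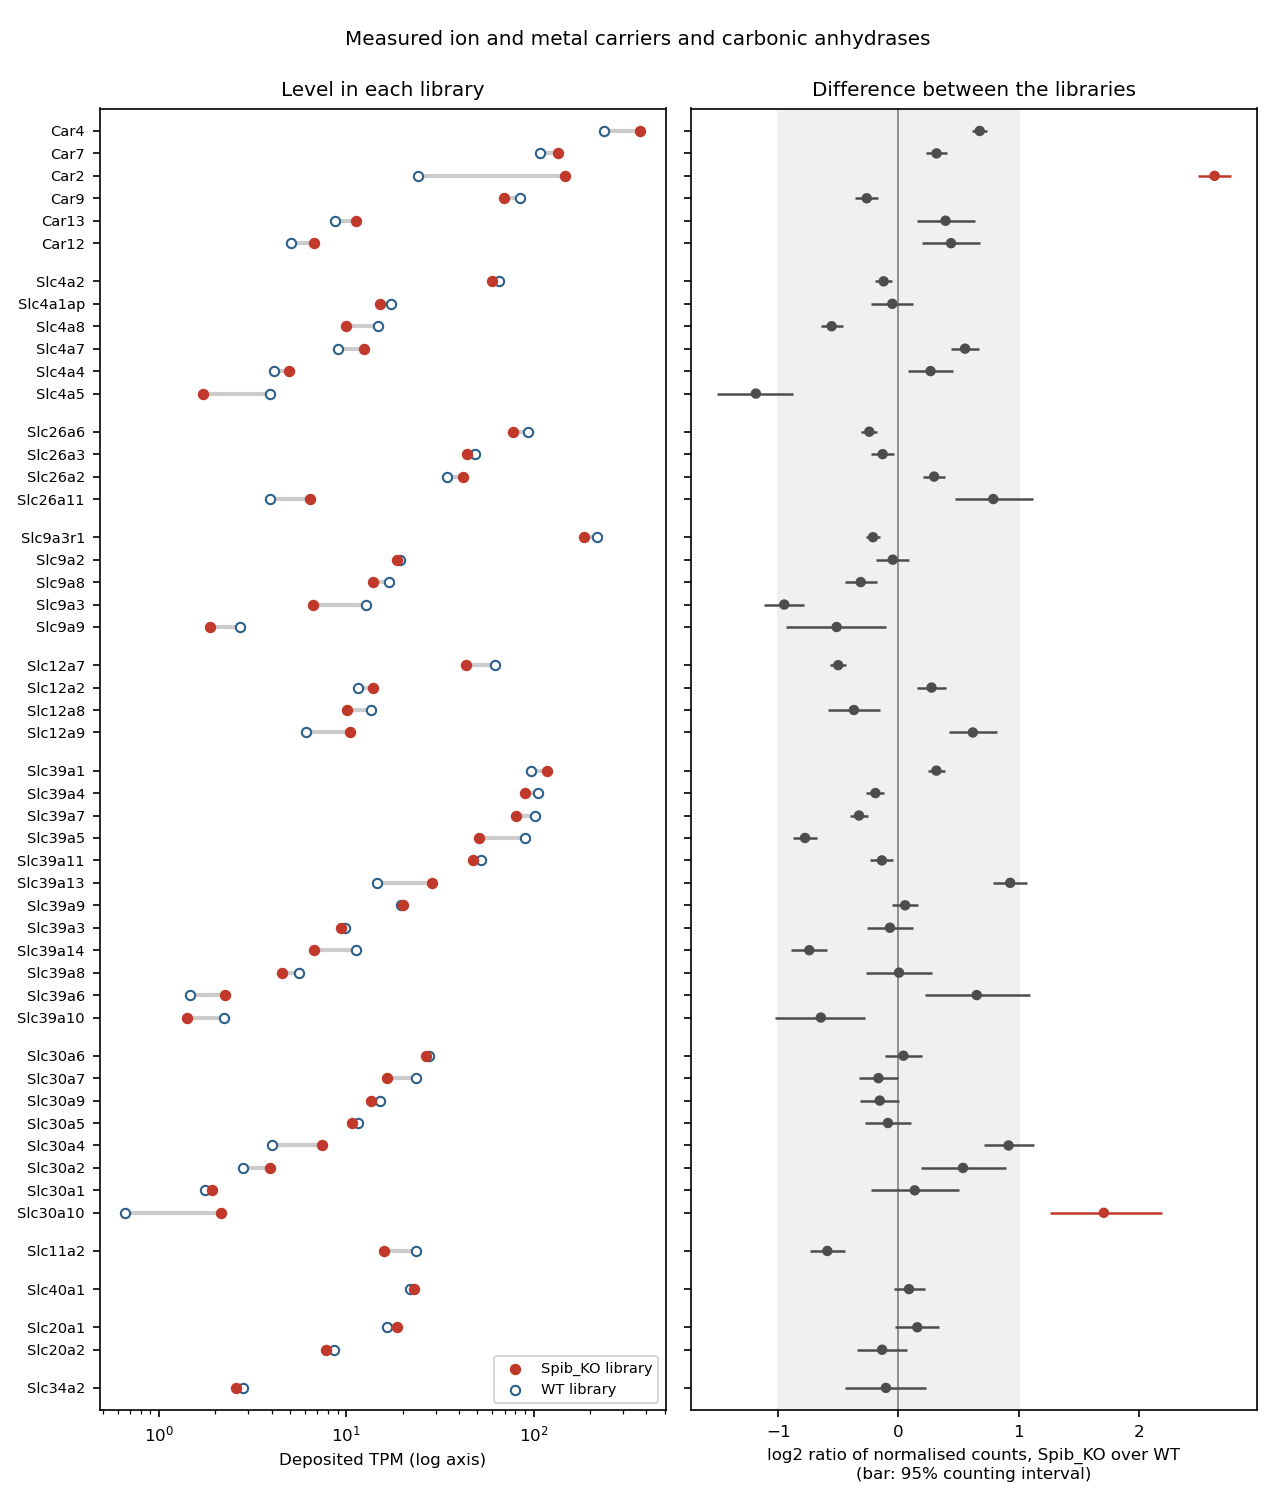
Level and difference of 50 measured genes, grouped by family. The left panel gives deposited TPM in the Spib_KO library (filled red) and the WT library (open blue) on a log axis. The right panel gives the log2 ratio of normalised counts, Spib_KO over WT, with its 95% counting interval, and grey shading marks differences under 2-fold. Car2 at 2.63 and Slc30a10 at 1.71 (red) are the genes drawn whose whole interval lies outside the shading.

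Among the measured members, the largest log2 ratio was that of a carbonic anhydrase gene. Car2, which encodes a fast cytosolic carbonic anhydrase, was 6.17-fold higher in Spib_KO (95% counting interval 5.62 to 6.80). It had 3022 reads in Spib_KO and 513 in WT, or 176 CPM (95% Poisson interval 170 to 182) in Spib_KO and 28.5 CPM (26.1 to 31.1) in WT, a log2 ratio of 2.63 (2.49 to 2.76). Car2 lies on chromosome 3 from 14886269 to 14900770 (GRCm38.p6). By TPM it was the 1012th most abundant gene in Spib_KO and the 4274th in WT. It held 19.7% of the summed carbonic anhydrase TPM in Spib_KO and 5.08% in WT. Of the enterocyte markers the higher one was Fabp6, an ileal bile acid-binding protein gene, at 97.8 CPM in Spib_KO and 19.1 CPM in WT. The bile acid carrier genes Slc51a and Slc51b of the same list had log2 ratios of 0.31 and -0.32. Slc10a2, another such gene, was under the minimum, with 57 reads in Spib_KO and 64 in WT. Whether the mix of cells or gut segments has a part in the Car2 difference was not tested.

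Car4 was the most abundant member of all 13 families. It encodes an enzyme anchored to the outer face of the cell membrane. Its level was 369 TPM in Spib_KO and 236 TPM in WT, and it held 49.8% of the family's TPM in Spib_KO and 49.7% in WT. The log2 ratio of Car4 was 0.68 (0.61 to 0.74), which is below the 2-fold rule. Car7, a cytosolic enzyme, was at 135 TPM in Spib_KO and 108 TPM in WT, a log2 ratio of 0.32 (0.23 to 0.40). Car9, a transmembrane enzyme with its active site outside the cell, was at 69.5 TPM in Spib_KO and 84.6 TPM in WT. It was the measured carbonic anhydrase with a log2 ratio below 0, at -0.26 (-0.36 to -0.17). The order by TPM was Car4, Car2, Car7 and Car9 in Spib_KO, and Car4, Car7, Car9 and Car2 in WT. Car13, another cytosolic form, had 11.3 TPM in Spib_KO and 8.74 TPM in WT, and the transmembrane form Car12 had 6.75 TPM in Spib_KO and 5.08 TPM in WT.

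Summed over the 15 carbonic anhydrase genes, the level was 742 TPM in Spib_KO and 475 TPM in WT. Without Car2 the sums were 596 TPM in Spib_KO and 451 TPM in WT, 32.0% above WT. Most of this remaining gap was Car4, with 369 TPM in Spib_KO and 236 TPM in WT. Cytosolic forms (Car1, Car2, Car3, Car7 and Car13) summed to 293 TPM in Spib_KO and 146 TPM in WT. Most of that gap was Car2, with 147 TPM in Spib_KO and 24.1 TPM in WT. The membrane-bound forms Car4, Car9 and Car12 summed to 446 TPM in Spib_KO and 326 TPM in WT.

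**Figure D2:**
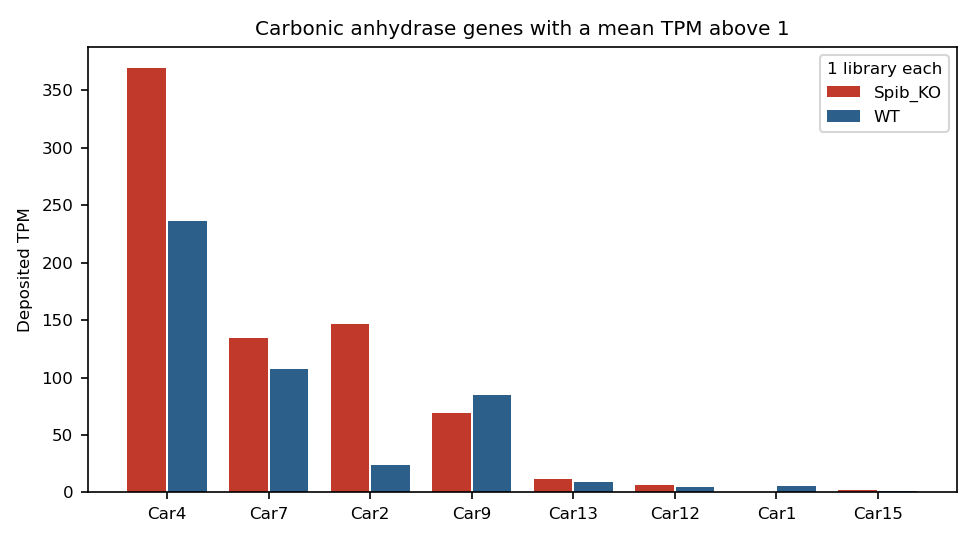
Deposited TPM of the 8 carbonic anhydrase genes with a mean TPM above 1, with the Spib_KO library in red left of the WT library in blue. Each bar is 1 library, so there are no error bars. Car2 stands at 147 TPM in Spib_KO and 24.1 TPM in WT, and Car4 is the tallest gene in both libraries.

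The other 9 carbonic anhydrase genes did not reach the minimum level. Car1, a cytosolic form abundant in red cells and colon, had 0 reads in Spib_KO and 71 in WT. It was at least 17.9-fold lower in Spib_KO by its counting interval, and 22.6-fold lower against a floor of 3 reads in that library. Its WT level of 3.95 CPM is under the 5 CPM minimum, so it was not called. Erythroid markers summed to 58.3 CPM in Spib_KO and 77.9 CPM in WT, with 0 of 3 measured genes called. Their part in the Car1 difference was not tested. Car8, which encodes a related protein without enzyme activity, had 33 reads in Spib_KO and 84 in WT, a log2 ratio of -1.27 (-1.91 to -0.68). Car15 had 27 reads in Spib_KO and 24 in WT, Car11 had 15 in Spib_KO and 10 in WT, and Car5b, a mitochondrial form, had 12 in Spib_KO and 6 in WT. Car3, Car5a, Car6 and Car10 had 8 reads or fewer in each library.

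Bicarbonate carriers of the Slc4 family, without Slc4a1ap, had 5 of 10 genes measured and 0 called. Slc4a2, an exchanger of chloride for bicarbonate, was the leading member with 59.7 TPM in Spib_KO and 65.2 TPM in WT, a log2 ratio of -0.12 (-0.19 to -0.05). The sodium-coupled carriers went in both directions. Slc4a7 had 80.5 CPM in Spib_KO and 54.8 CPM in WT, a log2 ratio of 0.55 (0.43 to 0.67). Slc4a8 had 92.4 CPM in Spib_KO and 136 CPM in WT, a log2 ratio of -0.56 (-0.65 to -0.46). Slc4a4 had a ratio of 0.27 (0.08 to 0.46). Slc4a5 had 118 reads in Spib_KO and 282 in WT, a log2 ratio of -1.19 (-1.51 to -0.87), so its interval reaches inside 2-fold. Slc4a1ap, the kanadaptin gene, had 15.1 TPM in Spib_KO and 17.3 TPM in WT. The red cell exchanger gene Slc4a1 had 1 read in Spib_KO and 0 in WT. Slc4a11 had 10 reads in Spib_KO and 0 in WT, and Slc4a3, Slc4a9 and Slc4a10 had 3 reads or fewer in each library. Of these carriers Slc4a2 overlaps an exon of Fastk on the opposite strand, and the reads of the pair cannot be told apart because the chemistry does not keep strand.

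Anion exchangers of the Slc26 family had 4 of 10 genes measured and 0 called, and they summed to 173 TPM in Spib_KO and 182 TPM in WT. Slc26a6, an apical exchanger of chloride, bicarbonate and oxalate, had 77.9 TPM in Spib_KO and 93.3 TPM in WT, a log2 ratio of -0.24 (-0.31 to -0.17). Slc26a3, the apical chloride-bicarbonate exchanger of absorptive cells, had 43.9 TPM in Spib_KO and 48.4 TPM in WT, a ratio of -0.13 (-0.23 to -0.03). The sulfate carrier gene Slc26a2 had 41.8 TPM in Spib_KO and 34.4 TPM in WT, a ratio of 0.30 (0.20 to 0.39). Slc26a11 was the measured member with the greatest difference, at 216 reads in Spib_KO and 131 in WT, a ratio of 0.79 (0.47 to 1.11). Below the minimum, Slc26a10 had 83 reads in Spib_KO and 78 in WT, and it overlaps B4galnt1. Slc26a4, the pendrin gene, had 33 reads in Spib_KO and 12 in WT. Slc26a8 had 14 reads in Spib_KO and 0 in WT, while Slc26a1, Slc26a7 and Slc26a9 had 3 reads or fewer.

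**Figure D3:**
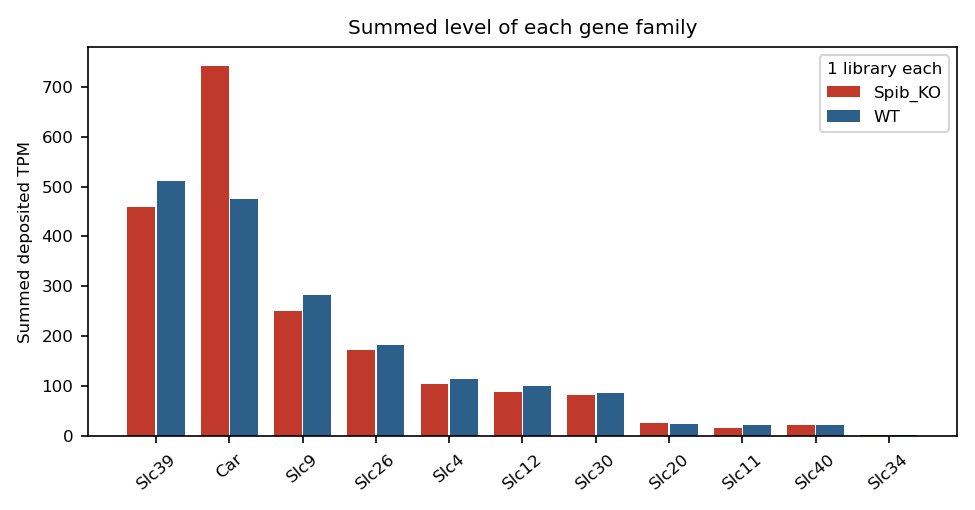
Summed deposited TPM of each family with a measured gene, for the Spib_KO library (red, left of each pair) and the WT library (blue, right). The Slc9 bars include the adaptor genes, and the Slc4 bars include Slc4a1ap. Sodium-proton exchangers alone sum to 63.0 TPM in Spib_KO and 63.2 TPM in WT. Each bar is 1 library. Carbonic anhydrases reach 742 TPM in Spib_KO and 475 TPM in WT, while the Slc39 zinc importers stand at 460 TPM in Spib_KO and 510 TPM in WT.

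Among sodium-proton exchangers, 6 of 9 genes were measured and 0 were called. Slc9a3, the main sodium-absorbing exchanger of the brush border, had 459 reads in Spib_KO and 930 in WT, a log2 ratio of -0.95 (-1.11 to -0.79). Its interval contains the 2-fold line. Slc9a2, also apical in epithelia, had 18.6 TPM in Spib_KO and 19.4 TPM in WT, a ratio of -0.05 (-0.18 to 0.09).

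Slc9a8, another measured exchanger, had 827 reads in Spib_KO and 1078 in WT, a ratio of -0.31 (-0.45 to -0.18). Slc9a9, of endosomes, had a ratio of -0.51 (-0.93 to -0.11). Slc9a7, of the trans-Golgi network, had 1 read in Spib_KO and 25 in WT, a log2 ratio of -4.03 (-9.93 to -1.96), but its 1.39 CPM in WT is under the minimum. Slc9a4 had 22 reads in Spib_KO and 0 in WT, at least 5.74-fold higher by its counting interval, also under the minimum. Slc9a5 had 53 reads in Spib_KO and 78 in WT. The adaptor gene Slc9a3r1, whose product tethers carriers and channels to ezrin under the brush border, was far more abundant than any exchanger. It had 186 TPM in Spib_KO and 219 TPM in WT, a log2 ratio of -0.21 (-0.27 to -0.15), and its relative Slc9a3r2 had 19 reads in Spib_KO and 10 in WT.

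Cation-chloride cotransporters had 5 of 7 genes measured and 0 called. Slc12a7, a potassium-chloride cotransporter, led the family with 43.8 TPM in Spib_KO and 62.2 TPM in WT, a log2 ratio of -0.50 (-0.57 to -0.43). Slc12a2, the cotransporter that loads epithelial cells with chloride from the blood side, had 13.8 TPM in Spib_KO and 11.5 TPM in WT, a ratio of 0.27 (0.15 to 0.40). Slc12a8 and Slc12a9, less characterised members, had ratios of -0.37 (-0.59 to -0.15) and 0.62 (0.42 to 0.82). Slc12a4 had 36 reads in Spib_KO and 19 in WT, and the thiazide-sensitive cotransporter gene Slc12a3 had 11 in Spib_KO and 1 in WT.

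Zinc importers of the Slc39 family had 12 of 12 genes measured and 0 called. They summed to 460 TPM in Spib_KO and 510 TPM in WT. Slc39a1, a surface zinc importer, led in Spib_KO with 118 TPM, against 96.3 TPM in WT, a log2 ratio of 0.31 (0.24 to 0.39). Slc39a4, the apical importer needed for dietary zinc uptake, led in WT, with 89.9 TPM in Spib_KO and 105 TPM in WT, a ratio of -0.19 (-0.27 to -0.12). Slc39a7, which releases zinc from the endoplasmic reticulum, had 80.2 TPM in Spib_KO and 102 TPM in WT, a ratio of -0.33 (-0.41 to -0.25). The greatest differences in this family stayed under 2-fold. Slc39a13, an intracellular zinc carrier, had 1171 reads in Spib_KO and 645 in WT, a log2 ratio of 0.93 (0.79 to 1.07). It overlaps an exon of Psmc3 on the opposite strand, and Psmc3 had a ratio of 0.08. Slc39a5, a basolateral importer, had 51.2 TPM in Spib_KO and 89.4 TPM in WT, a ratio of -0.78 (-0.88 to -0.67). Slc39a14, which also carries iron and manganese, had 588 reads in Spib_KO and 1031 in WT, a ratio of -0.74 (-0.89 to -0.59). Slc39a10 and Slc39a6 had ratios of -0.65 (-1.03 to -0.28) and 0.65 (0.22 to 1.09) at 9 CPM or less. Slc39a3, Slc39a8, Slc39a9 and Slc39a11 had ratios from -0.14 to 0.06. By deposited TPM, however, Slc39a8 had 4.55 in Spib_KO and 5.60 in WT, a log2 ratio of -0.30. Slc39a9 overlaps an exon of Erh on the opposite strand.

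Zinc exporters of the Slc30 family had 8 of 9 genes measured and 1 higher. Slc30a10 encodes a manganese exporter of the cell surface, in spite of its place among the zinc carriers. It had 166 reads in Spib_KO and 53 in WT, or 9.67 CPM (8.26 to 11.3) in Spib_KO and 2.95 CPM (2.21 to 3.85) in WT. It was 3.26-fold higher in Spib_KO (2.40 to 4.56), a log2 ratio of 1.71 (1.26 to 2.19). Its level stayed low, at 2.15 TPM in Spib_KO and 0.66 TPM in WT, which is 2.58% of the family's sum in Spib_KO and 0.76% in WT. Slc30a6, Slc30a7, Slc30a9 and Slc30a5 were the leading members. Slc30a6, which pairs with the product of Slc30a5 in the secretory pathway, had 26.7 TPM in Spib_KO and 27.6 TPM in WT, a ratio of 0.04 (-0.11 to 0.20). Slc30a5 had a ratio of -0.09 (-0.28 to 0.10), and Slc30a9 of the mitochondria a ratio of -0.16 (-0.32 to 0.01). Slc30a7, a Golgi zinc carrier, had a ratio of -0.17 (-0.33 to -0.01) from counts, but 16.4 TPM in Spib_KO against 23.6 TPM in WT, a log2 ratio of -0.53. Slc30a4, a vesicular carrier, had 527 reads in Spib_KO and 293 in WT, a ratio of 0.91 (0.71 to 1.13). Slc30a2 had a ratio of 0.54 (0.19 to 0.89), and the surface exporter gene Slc30a1 one of 0.14 (-0.23 to 0.50). Slc30a3, of synaptic vesicles, had 14 reads in Spib_KO and 0 in WT. The family summed to 83.4 TPM in Spib_KO and 87.2 TPM in WT.

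No promoter window was available for Car2. The promoter of Slc30a10 is shown because it is the other called gene. Beside it is that of Car4, the most abundant member, which was not called and was picked after its values were seen. Each runs from 250 bases before to 50 bases after the annotated start and is on the plus strand (RefSeq, GRCm38.p6). They lie at chr1:185454598-185454897 and chr11:84957504-84957803. Capitals mark GGAA, the core letters of the motifs bound by Spi-B and other ETS factors, or its complement TTCC.
Slc30a10: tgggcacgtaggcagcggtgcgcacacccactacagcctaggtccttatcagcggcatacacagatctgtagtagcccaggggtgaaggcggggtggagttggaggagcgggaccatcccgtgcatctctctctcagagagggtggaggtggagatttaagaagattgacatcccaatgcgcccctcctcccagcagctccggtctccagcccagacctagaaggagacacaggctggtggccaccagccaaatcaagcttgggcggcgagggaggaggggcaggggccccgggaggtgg
Car4: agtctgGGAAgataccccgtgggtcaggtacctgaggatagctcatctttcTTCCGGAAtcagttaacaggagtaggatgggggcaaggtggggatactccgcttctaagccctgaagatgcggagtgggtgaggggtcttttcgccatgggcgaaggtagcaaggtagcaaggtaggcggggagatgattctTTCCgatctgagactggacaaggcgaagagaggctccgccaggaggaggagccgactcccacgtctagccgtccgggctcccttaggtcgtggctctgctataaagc
The Slc30a10 window held 0 copies of GGAA on either strand, and the Car4 window held 4. GGAA was found in the windows of 96.8% of the 8702 measured genes that have a promoter window. It was in 61 of the 64 members that have one, and in 36 of the 38 measured members. The longer motif AGGAAGT, which contains GGAA, was found on either strand in 10.5% of the measured genes. It was in 7 of the 64 members (10.9%) and in 5 of the 38 measured members (13.2%). GAGGAAGT, which contains AGGAAGT, was found in 3.49% of the measured genes, in 1 of 64 members and in 0 of 38 measured members. A gene with several annotated starts counted once if any window held the motif. Letters in a window are a description, and their absence says nothing of binding elsewhere.

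Iron carriers were not called. Slc11a2, which brings ferrous iron into enterocytes, had 641 reads in Spib_KO and 1013 in WT, a log2 ratio of -0.59 (-0.74 to -0.45), with 15.9 TPM in Spib_KO and 23.6 TPM in WT. Slc40a1, which encodes the iron exporter ferroportin, had 22.9 TPM in Spib_KO and 21.9 TPM in WT, a ratio of 0.09 (-0.04 to 0.22). The phosphate carrier genes Slc20a1 and Slc20a2 had ratios of 0.16 (-0.03 to 0.34) and -0.14 (-0.34 to 0.07), each spanning 0. Slc20a1 had 18.6 TPM in Spib_KO and 16.4 TPM in WT, and Slc20a2, which overlaps Smim19, had 7.75 TPM in Spib_KO and 8.61 TPM in WT. Slc34a2, the intestinal sodium-phosphate cotransporter, was low, at 2.59 TPM in Spib_KO and 2.82 TPM in WT. Slc34a3 had 4 reads in Spib_KO and 0 in WT.

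Calcium exchangers were close to absent, with 0 of 6 genes measured in the Slc8 and Slc24 families. Slc8a1, a sodium-calcium exchanger known from the heart, had 7 reads in Spib_KO and 31 in WT, a log2 ratio of -2.00 (-3.51 to -0.87). Slc8a3 had 0 reads in Spib_KO and 16 in WT, at least 3.68-fold lower by its counting interval. Slc8a2 had 1 read in Spib_KO and 0 in WT. Slc24a5, a potassium-dependent exchanger known from pigment cells, had 32 reads in Spib_KO and 0 in WT, at least 8.58-fold higher by its counting interval. It overlaps Myef2 on the opposite strand, which had 359 reads in Spib_KO and 268 in WT, and the deposited count of Slc24a5 is not whole. Slc24a2 had 12 reads in Spib_KO and 4 in WT, and Slc24a3 had 0 in Spib_KO and 4 in WT. All 6 were below 2 CPM in both libraries.

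**Figure D4:**
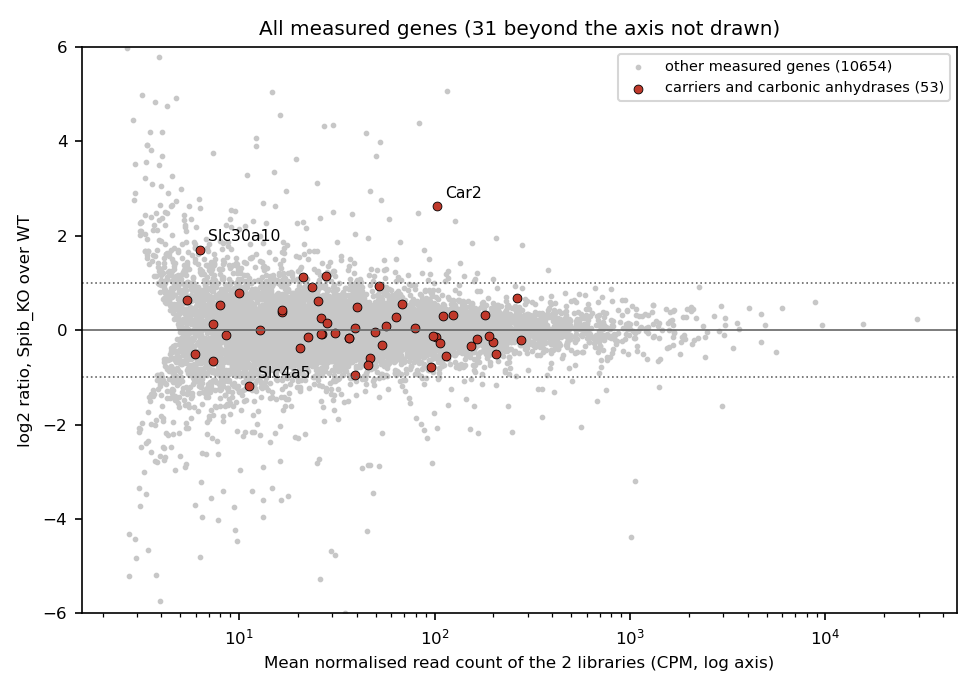
Log2 ratio of Spib_KO over WT against the mean normalised read count of the 2 libraries (CPM, log axis). The 53 measured members are in red and 10654 other measured genes in grey. Dotted lines mark 2-fold, and 31 genes beyond a log2 ratio of 6 are not drawn. Car2 stands above the grey cloud at its level, while Slc30a10 and Slc4a5 lie within it or near its edge.

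Partner genes of these carriers were counted from lists that leave the members out. For comparison, 2.33% of all 10707 measured genes were higher and 2.18% were lower. With lists this small, 1 call is not read as a result about the list. Of 5 measured genes for sodium and proton pumps of the surface membrane, 1 was higher and 0 were lower. The beta subunit gene of the sodium pump, Atp1b1, had 326 TPM in Spib_KO and 318 TPM in WT. Of 7 measured genes for calcium pumps and calcium absorption, 1 was lower, namely the plasma membrane calcium pump gene Atp2b2, with 235 reads in Spib_KO and 904 in WT, a ratio of -1.87 (-2.09 to -1.67). Of 21 measured kinases and adaptors of ion carriers, 1 was lower. This was Sgk1, a kinase that raises the surface activity of several carriers, with 248 reads in Spib_KO and 835 in WT, a ratio of -1.68 (-1.89 to -1.48). Of 15 measured genes for magnesium and manganese handling, 1 was higher. It was Trpm6, a magnesium channel gene, with 86 reads in Spib_KO and 28 in WT, a ratio of 1.67 (1.06 to 2.36).

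Genes for zinc storage, iron handling and copper handling had 0 calls among 3, 20 and 13 measured. Mt1, a metallothionein that binds zinc and copper, had 2414 TPM in Spib_KO and 1537 TPM in WT, a log2 ratio of 0.77 (0.73 to 0.81). Mt2 had 52 reads in Spib_KO and 111 in WT, a ratio of -1.02 (-1.53 to -0.54). Mt1 and Mt2 were counted in the zinc list and again in the copper list. Atox1, a copper chaperone, had 1179 TPM in Spib_KO and 1514 TPM in WT, a ratio of -0.27. Of 10 measured inorganic ion carriers outside the families above 0 were called, with ratios from -0.53 to 0.53. Some of these were already counted in the lists above, among them Slc41a2 (-0.53) and Slc31a2 (0.53).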

How the data were processed

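Gene expression was measured by RNA sequencing in 2 libraries of sorted mouse tuft cells, 1 from Spib_KO mice and 1 from WT mice. The labels' protocols name TRIzol extraction, SMART-SeqII cDNA amplification and a transposase-based library. Per the submitters' processing notes, HISAT and Bowtie2 2.2.3 were used with build mm10. No counting program is named in the sources used here. The authors deposited, per the file headers, 3 values per library for 17134 genes: read count, TPM and FPKM. These are expected counts, as deposited by the authors, since 18.6% (Spib_KO) and 19.0% (WT) are not whole, and they were rounded. Deposited TPM and FPKM values served for levels between genes and as alternatives.

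TMM factors (edgeR 4.0.16, R 4.3.3) gave effective totals of 17161039 for Spib_KO and 17996059 for WT. Log2 ratios are Spib_KO over WT, with 0.5 as prior count. Its 95% interval is the exact conditional binomial (Clopper-Pearson) interval. With 1 library per genotype there is no test and no p-value. The floor for 0 reads was 3 counts per library, which is 0.175 CPM in Spib_KO and 0.167 CPM in WT.

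The procedure was tested on simulated Poisson counts. These hold no spread between animals and no amplification copies, so the test says nothing of either. Alternatives were other scalings (DESeq2 1.42.0 size factors, total counts, upper quartile), filters, prior counts, call rules and units. Genes named were all called members, those 2-fold apart by point estimate, the 3 most abundant of each family, members with 0 reads in 1 library and 30 or more in the other, and called or leading partner genes. Other members are given because the families are small, and a few genes are not reported here. Members and lists were chosen with earlier results of these data known. Positions are from RefSeq (GRCm38.p6, all 87 members matched) and exon overlaps from GENCODE M21. Of the measured members, 5 overlap an exon of another gene. Python 3.11.15, scipy 1.17.1, pandas 2.3.3, numpy 2.4.6 and matplotlib 3.10.9 were used.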

Additional observations from a re-analysis of the deposited data

How the results depend on the processing

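No paired analysis was possible because each genotype has 1 library. For the same reason no replicate could be left out, and biological variation is unknown. The count of 2 higher and 0 lower members was the same with DESeq2 size factors, total counts, upper quartile factors and a prior count of 5. It was also the same in 2 alternatives chosen after seeing the data, without members that overlap another gene and without the 3 genes that are not carriers. Without the expression filter 7 members were higher and 3 lower, since genes with few reads enter, and the median log2 ratio was 0.0875 against -0.05. The same rule gave 3.48% higher and 4.18% lower over all genes. With a minimum of 20 CPM, or an interval bound of 4-fold, 1 member was higher, Car2. By the point estimate 4 were higher and 1 lower. Deposited TPM gave 2 higher, Car2 among them, and 1 lower (Car1), and FPKM gave 1 higher (Car2). Car2 was called under every alternative run. Slc30a10 was not called with the 20 CPM minimum, the 4-fold bound, TPM or FPKM. Its 9.67 CPM and 2.15 TPM in Spib_KO are under the minimum levels of those rules, and its interval bound of 1.26 is under that of a 4-fold difference. Of 380 log2 ratios of 38 named members under the alternatives, 2 changed sign, both of Slc30a6, whose main ratio was 0.04. Changed filters and call rules leave a ratio as it is, so only scalings, the prior count and units could move it. Of the 380, 16 fell outside the main counting interval, under the prior count of 5, deposited TPM or FPKM. By TPM with 1 added, Slc30a10 had 0.92 against 1.71, and Slc4a5 had -0.86 against -1.19. Depth limits genes under 5 CPM, which include 34 of the 87 members.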

Other observations

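The vacuolar proton pump, which acidifies endosomes and lysosomes, was measured for 18 genes with 0 calls. Of these, 15 had a log2 ratio above 0, the median was 0.16 and the range was -0.30 to 0.55. Atp6v1f, a subunit of the catalytic part, had 1013 TPM in Spib_KO and 906 TPM in WT. Atp6v0c, which forms the proton ring, had 646 TPM in Spib_KO and 585 TPM in WT. The ferritin genes, which store iron, had opposite signs. The heavy chain gene Fth1 had 4993 TPM in Spib_KO and 6654 TPM in WT, a log2 ratio of -0.37 (-0.39 to -0.35), and the light chain gene Ftl1 had 4852 TPM in Spib_KO and 4033 TPM in WT, a ratio of 0.31 (0.29 to 0.33).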
